A study of Mus musculus with 22 samples.

Results

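Lysosomes are the acidic compartments in which macrophages break down engulfed material, and the vacuolar proton pump that acidifies them is built from many separately encoded subunits. The RNA of 36 lysosome and proton pump genes was followed across the treatments of a macrophage study. The members were taken from a written list of gene symbols, matched to the symbol column of a table of 16059 genes, with no threshold on any measured value. The list was chosen with earlier results of these data known, so member counts set beside those of all genes are descriptive. All 36 were found, and all 36 were among the 12213 genes with enough counts to be tested. They comprise 6 subunits of the V0 part and 8 of the V1 part of the vacuolar H+-ATPase (V-ATPase), 2 proteins that assist it, 8 cathepsins, 3 lysosomal membrane proteins, 3 transcription factors of the MiT/TFE family, 5 genes of lysosomal hydrolysis and lipid handling, and the autophagy receptor Sqstm1.

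Marrow of C57/BL6 mice was turned into macrophages over 7 days with L929 supernatant, which supplies macrophage growth factor, and the cells were treated for 3 h. The control cells received no stimulus, the LPS cells received lipopolysaccharide, a bacterial cell wall component, at 100 ng/ml, and the LPS+LA cells received the same LPS with L-(+)-lactic acid (LA) at 10 mM. The LA cells received lactic acid without LPS, at a dose that the labels do not state. The LPS+HCl cells received LPS with hydrochloric acid, an acid without lactate, for which the labels give pH 6.5 as an example, while the pH reached with LA is not stated. RNA was counted in 2 libraries of each of the 5 groups, and ATAC-seq, which marks open chromatin, was done on 3 samples each of control, LPS, LA and LPS+LA. Nothing states that replicates came from separate mice or cultures, so p-values measure the spread between these libraries, which may be technical.

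The V-ATPase uses ATP, split by its cytosolic V1 part, to turn a ring in the membrane-embedded V0 part and so carry protons into the lysosome. The low pH activates cathepsins, the lysosomal proteases, and the other acid hydrolases. TFEB, TFE3 and MITF are related transcription factors that can bind E-box motifs in the promoters of lysosomal genes, and their activity is set largely by phosphorylation at the lysosome and by movement into the nucleus, which RNA levels do not show.

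The 10 RNA libraries held 18668666 to 20219895 counts. Levels are given in CPM, a gene's share of the counts in its library, computed from the deposited expected counts after scaling by TMM (trimmed mean of M values), which sets the bulk of genes equal between libraries. Summed CPM of 10 macrophage markers ran from 14120 to 20130 with none at 0, and the summed levels of T cell, B cell, neutrophil, dendritic cell, erythroid and fibroblast markers each stayed at or below 5.95 CPM. Osteoclast markers summed to between 5.13 and 17.9 CPM. Summed neuron markers were 33.1 CPM in control 1 against 12.5 in control 2, and 57.7 in LPS+HCl 2 against 29.7 in LPS+HCl 1, and both LPS libraries were high as well (43.3 and 42.4). They lay between 15.5 and 27.7 CPM in LA and LPS+LA. Oligodendrocyte markers summed to between 88.2 and 106.7 CPM and astrocyte markers to between 71.8 and 87.6 CPM over the 10 libraries. The part of these transcripts in the results was not tested, and each call below was also run without control 1 and LPS+HCl 2, the libraries that differed from their replicates in neuron markers. The TMM factors of the LPS libraries were the lowest (down to 0.759) and those of control the highest (up to 1.27). Replacing TMM by total counts moved the median log2 change of all genes from -0.05 to -0.77 for LPS against control, from 0.03 to 0.43 for LPS+LA against LPS, and from 0.01 to 0.25 for LPS+HCl against LPS. A change reported as TMM-scaled is thus a change relative to the bulk of genes, and the sign of many small changes depends on that choice.

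A gene was called higher or lower where the quasi-likelihood test of edgeR, with p-values adjusted by Benjamini-Hochberg over all 12213 genes, gave an adjusted p under 0.05. After LPS alone, 23 of the 36 members were called higher and 6 lower, against 32.4% of all tested genes called higher and 32.4% called lower. The members' median log2 change was 0.21, against -0.05 for all genes, and the gap of 0.26 was 0.25 with total counts. Of the 23 higher calls, 4 stayed higher with total counts, namely Sqstm1, Mitf, Ctsc and Atp6v1e1, while 18 had a value below 0 there and Ctsz was at 0.065. The 6 lower calls, Tfeb, Atp6v0d2, Lipa, Npc1, Tfe3 and Gla, were lower under both scalings. Among all 12213 genes, total counts called 1761 higher and 8289 lower. Leaving out 1 library of either group ended the calls of 8 members with small changes, Atp6v1a, Atp6v1g1, Atp6ap1, Atp6ap2, Ctsa, Lamp1, Tfe3 and Gla, whose adjusted p then ran from 0.0533 to 0.249. No member outside those 8 lost its call to a left-out library. In bulk RNA, fewer cells that make a transcript and less of it per cell cannot be told apart. In this and the next 4 comparisons, the libraries of each called member did not overlap between the groups compared. Called or not, 33, 29, 32, 29 and 30 of the 36 members had no overlap in these comparisons, in that order. Lack of overlap thus does not set called members apart, and its share over all genes was not counted.

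**Figure D1:**
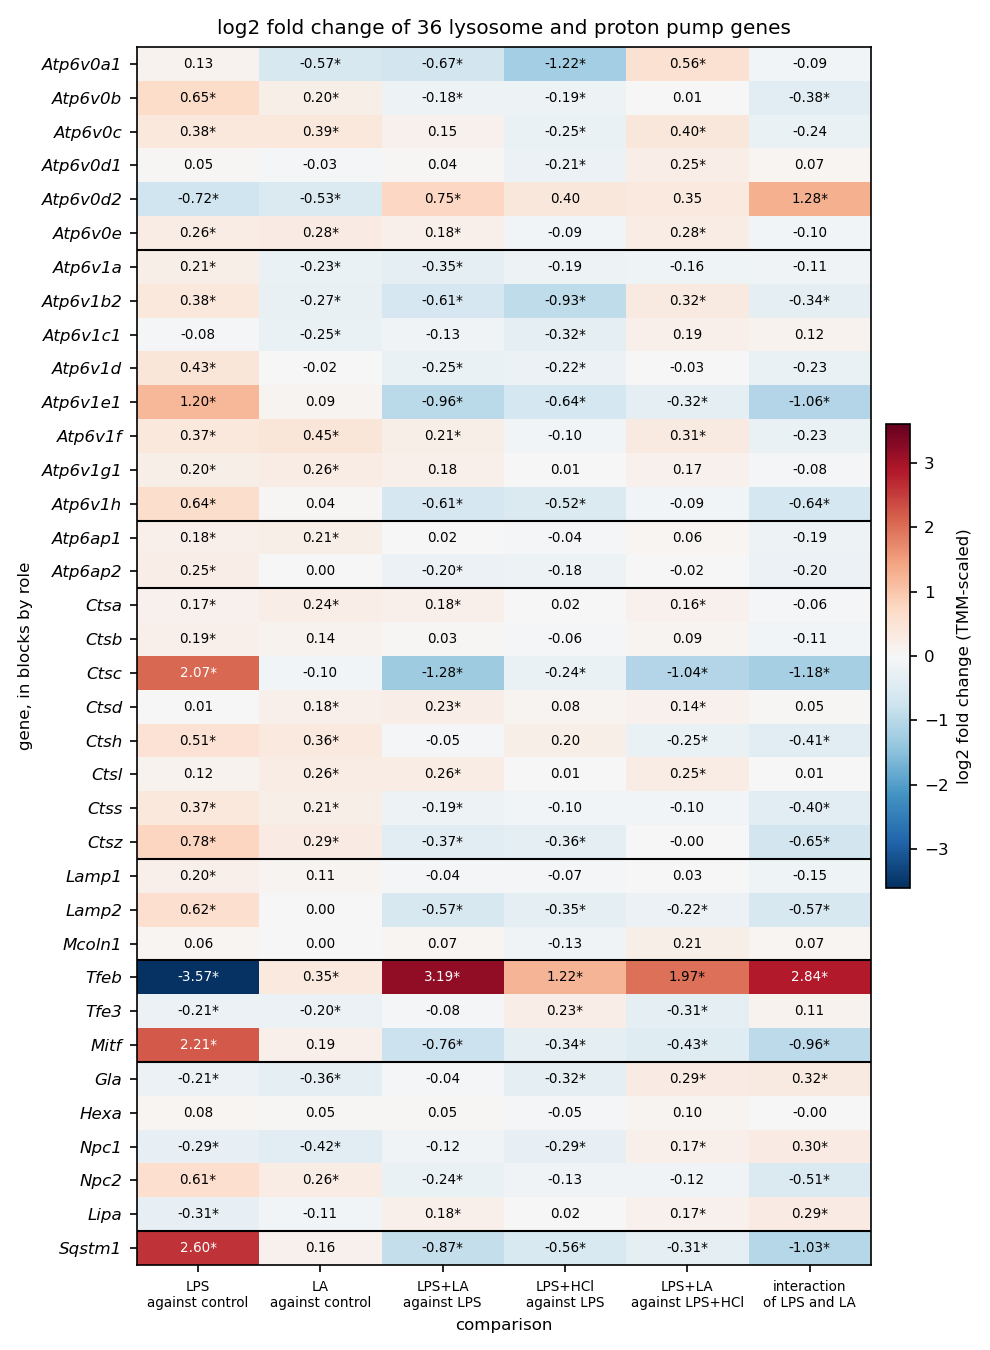
log2 fold change (TMM-scaled) of each of the 36 genes, in blocks by role, in each of 6 tests; an asterisk marks an edgeR adjusted p under 0.05. Tfeb had the lowest value with LPS, -3.57, and the highest with LPS+LA against LPS, 3.19.

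With lactic acid and no LPS, 14 members were called higher and 8 lower, against 20.4% and 17.9% of all genes. No called member reached a log2 change of 1 in either direction, and the members ran from -0.57 for Atp6v0a1 to 0.45 for Atp6v1f. With total counts 6 members were called higher and 10 lower, beside 1719 and 3070 of all 12213 genes. Leaving out control 1, control 2, LA 1, LA 2 or LPS+HCl 1 ended 11 of the 22 calls, those of Atp6v0b, Atp6v0d2, Atp6v1a, Atp6v1c1, Atp6v1g1, Atp6ap1, Ctsa, Ctsd, Ctss, Tfeb and Tfe3, with adjusted p up to 0.417. Without control 1, and without control 1 and LPS+HCl 2 together, fewer members were called higher and fewer lower. Without LA 2, fewer were called lower. In each of these fits, fewer of all tested genes were called in the same direction as well.

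With lactic acid added to LPS, 8 members were called higher and 15 lower than with LPS alone, against 29.2% and 29.7% of all genes. With total counts 25 members were higher and 8 lower, beside 6208 and 2032 of all 12213 genes. The 2 scalings shared 16 calls. Leaving out LPS 1, LPS 2, LPS+LA 1, LPS+LA 2 or LPS+HCl 1 ended the calls of Atp6v0b, Atp6v0e, Atp6v1d, Atp6v1f, Atp6ap2, Ctsa, Ctss and Lipa, with adjusted p up to 0.372, and left 5 higher calls without LPS 1, LPS 2 or LPS+LA 1. The calls that held in every fit run were Tfeb, Atp6v0d2, Ctsl and Ctsd, which were higher, and Ctsc, Atp6v1e1, Sqstm1, Mitf, Atp6v0a1, Atp6v1b2, Atp6v1h and Lamp2, which were lower.

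With hydrochloric acid added to LPS, 2 members were called higher and 16 lower than with LPS alone, against 18.0% and 20.8% of all genes. With total counts 14 members were higher and 5 lower, beside 4535 higher and 1310 lower of all 12213 genes under that scaling. The median gap between members and all genes was -0.17 under TMM and -0.17 under total counts. The calls that held in every fit run were Tfeb, which was higher, and Atp6v0a1, Atp6v1b2, Atp6v1e1, Sqstm1 and Atp6v1h, which were lower. Leaving out LPS 1, LPS 2, LPS+HCl 1 or LPS+HCl 2 ended the calls of Atp6v0b, Atp6v0c, Atp6v0d1, Atp6v1d, Ctsc, Tfe3 and Npc1, with adjusted p up to 0.238. The only other higher call, Tfe3, was among them, so that without LPS 2, LPS+HCl 1 or LPS+HCl 2 only Tfeb was called higher.

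The 2 acid treatments were then compared directly. LPS+LA had 13 members higher and 7 lower than LPS+HCl, against 18.4% and 22.5% of all genes, and 15 of these 20 calls were made under both scalings. Tfeb, Atp6v0a1, Atp6v0c, Atp6v1b2, Gla and Atp6v0e were higher with LA than with HCl in every fit run, and Ctsc and Mitf were lower. Leaving out LPS+HCl 2 left 6 higher calls. The calls of Atp6v0d1, Atp6v1f, Ctsa, Ctsd, Ctsh, Ctsl, Lamp2, Npc1, Lipa and Sqstm1 were lost when 1 of the LPS, LPS+LA or LPS+HCl libraries was left out, with adjusted p up to 0.347. LA is labelled by concentration and HCl by pH, so nothing shows that the acid doses match.

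Whether the LA effect differed with and without LPS was tested by an interaction term, the LA effect in LPS-treated cells minus the LA effect in unstimulated cells. It was called above 0 for 5 members and below 0 for 12, against 20.4% and 23.9% of all genes. With total counts the numbers were 23 and 4, beside 5917 and 1294 of all 12213 genes. The 6 that held in every fit run were Tfeb (2.84) and Atp6v0d2 (1.28), above 0, and Ctsc (-1.18), Atp6v1e1 (-1.06), Sqstm1 (-1.03) and Mitf (-0.96), below 0. Leaving out LA 2, LPS 1, LPS 2, LPS+LA 1, LPS+LA 2 or control 2 ended the calls of Gla, Npc1 and Lipa, with adjusted p from 0.0522 to 0.0983. The values themselves stayed above 0, at 0.25 for Npc1 and 0.28 for Lipa without LPS 1. Without LA 2 they were 0.26 for Gla and 0.22 for Lipa.

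**Figure D2:**
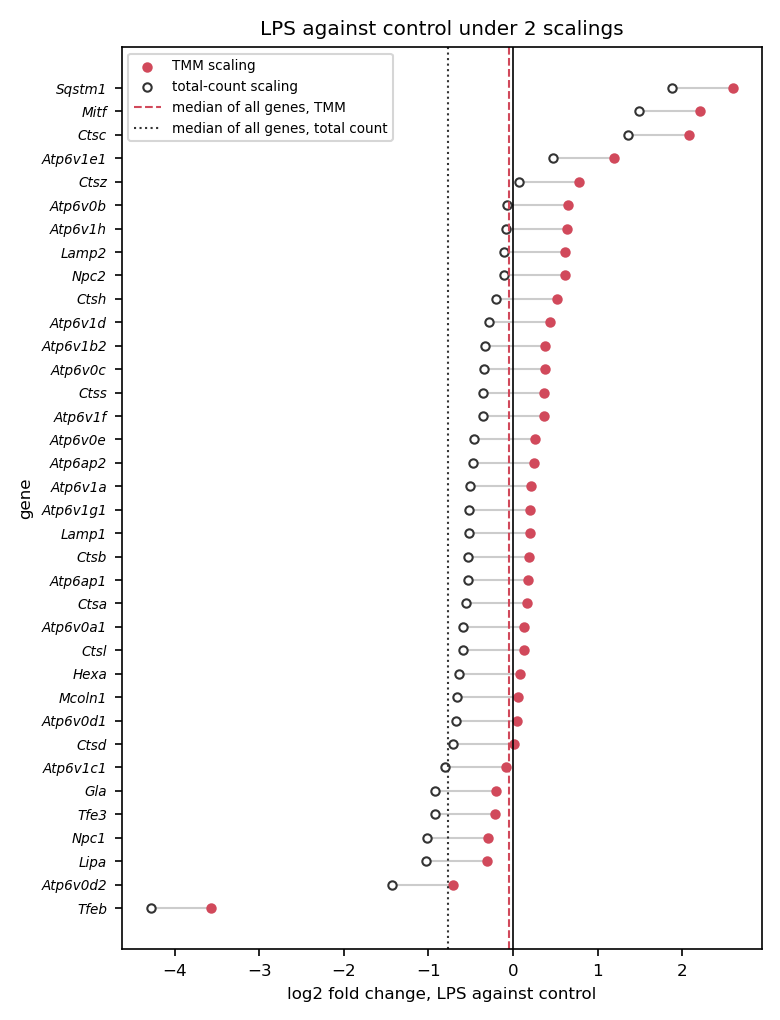
log2 fold change of each of the 36 genes for LPS against control under TMM scaling (filled points) and total-count scaling (open points), with the median of all 12213 genes as a dashed and a dotted line. Every gene shifts by nearly the same amount, and Sqstm1, Mitf, Ctsc, Atp6v1e1 and Ctsz keep a value above 0 under both.

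Levels between genes were compared per length, as deposited TPM, a share of all transcripts corrected for gene length, in the control group. Ctsb, a cysteine cathepsin, and Ctsd, the aspartic cathepsin, stood at 11638 and 9890.5 TPM, ranks 4 and 6 of the 16059 genes. Lamp1, a heavily glycosylated membrane protein, had 1971 TPM (rank 50) and Atp6v0c, the main ring subunit, 1938 TPM (rank 51). Among the pump subunits the levels ran from that of Atp6v0c down to Atp6v1h at 75.8 TPM and Atp6v0d2 at 6.66 TPM (rank 8862), so Atp6v0d2 was the least abundant of the 36. Its alternative form Atp6v0d1 stood at 290.2 TPM. Of the transcription factors, Tfe3 had 153 TPM, Tfeb 46.0 and Mitf 26.8. Ctsb and Ctsd were far above all 3 factors on this scale.

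Promoter sequence of RefSeq (GRCm38.p6) was found for 28 of the 36 members, as windows of 250 bases before to 50 bases after each annotated start. The 8 others were Ctsh, Atp6v1c1, Atp6v1b2, Atp6v1g1, Atp6v1h, Npc1, Atp6v0d2 and Ctsb. The palindromic E-box TCACGTGA, which reads the same on both strands and contains the shorter motif CACGTG, was present in a window of 7 of the 28 (25.0%), against 2.19% of the 9797 tested genes with a window. The shorter CACGTG was in 10 of 28 (35.7%), those 7 included, against 11.8%. Another form, TCATGTGA searched on both strands, was in 3 of 28 (10.7%), against 0.929%. These shares describe the letters and show no binding. The 7 members with TCACGTGA are shown because they carry the sequence that MiT/TFE factors are known to bind, each 5′ to 3′ on the gene's strand with the motif in capitals.

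Ctsa: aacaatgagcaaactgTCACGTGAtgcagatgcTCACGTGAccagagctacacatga
Ctsd: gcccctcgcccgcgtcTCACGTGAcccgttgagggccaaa
Mcoln1: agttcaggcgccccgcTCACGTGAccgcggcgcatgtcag
Atp6v0d1: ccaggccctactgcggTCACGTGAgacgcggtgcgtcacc
Atp6v0e: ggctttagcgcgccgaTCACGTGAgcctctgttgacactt
Atp6v1a: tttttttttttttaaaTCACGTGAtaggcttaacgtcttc
Gla: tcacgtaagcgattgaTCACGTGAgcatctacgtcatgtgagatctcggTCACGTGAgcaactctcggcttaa

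Ctsa (chr2:164833744-164833800, plus strand) and Gla (chrX:134601177-134601249, minus strand) each held 2 copies. Ctsd (chr7:142387903-142387942, minus strand), Mcoln1 (chr8:3500457-3500496, plus strand), Atp6v0d1 (chr8:105566045-105566084, minus strand), Atp6v0e (chr17:26676382-26676421, plus strand) and Atp6v1a (chr16:44139368-44139407, minus strand) held 1 copy each. The Lamp1 window held CACGTG 4 times within a short stretch (chr8:13159084-13159167, plus strand) but no TCACGTGA.

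Lamp1: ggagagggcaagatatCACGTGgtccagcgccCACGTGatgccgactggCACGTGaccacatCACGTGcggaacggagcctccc

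After LPS the TMM-scaled log2 changes of these 7 genes ran from -0.21 to 0.26, and with total counts, from -0.93 to -0.46. With LPS+LA against LPS they ran from -0.35 to 0.23, and with total counts from 0.054 to 0.63. The 18 members with a window and no CACGTG ran from -3.57 to 2.60 after LPS. They include Tfeb, Mitf, Sqstm1, Ctsc and Atp6v1e1, the members with the widest changes in that comparison.

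The 3 MiT/TFE factors went separate ways. Tfeb, often called the master regulator of lysosomal genes, was far lower after LPS and, with lactic acid added to LPS, stood much nearer to its control level. Tfeb stood at 36.9 and 43.0 CPM in control, 3.30 and 3.44 in LPS, 47.2 and 54.8 in LA, 32.5 and 29.3 in LPS+LA, and 7.62 and 8.12 in LPS+HCl. The LPS libraries lay below all others, the LPS+HCl libraries were next, and the LA libraries lay highest. Tfeb fell 11.8-fold with LPS (log2 -3.57, SE 0.16, edgeR adjusted p = 7.43e-16). Against LPS alone it was 9.16-fold higher with LPS+LA (log2 3.19, SE 0.16, edgeR adjusted p = 2.42e-14) and 2.33-fold higher with LPS+HCl (log2 1.22, SE 0.18, edgeR adjusted p = 9.28e-06). LPS+LA and LPS+HCl differed 3.92-fold (log2 1.97, SE 0.13, edgeR adjusted p = 3.37e-11). These Tfeb calls held under both scalings and in each fit with a library left out. Lactic acid alone gave a smaller rise (log2 0.35, SE 0.11, edgeR adjusted p = 0.0143), which was not called with total counts (0.24), nor without control 1 (0.24, adjusted p = 0.205) or LA 2 (0.24, adjusted p = 0.159).

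Mitf, the family member best known from pigment cells and osteoclasts, rose with LPS where Tfeb fell. Mitf stood at 52.6 and 52.5 CPM in control, 237 and 249 in LPS, 65.4 and 54.9 in LA, 135 and 151 in LPS+LA, and 194 and 190.3 in LPS+HCl. The control libraries were lowest and the LA libraries next, and the LPS, LPS+HCl and LPS+LA libraries followed above them in falling order, with no overlap between groups. Mitf rose 4.62-fold with LPS (log2 2.21, SE 0.09, edgeR adjusted p = 1.01e-16) and was 1.70-fold lower with LPS+LA than with LPS (log2 -0.76, SE 0.08, edgeR adjusted p = 2.82e-08). LPS+HCl also lay below LPS (log2 -0.34, SE 0.08, edgeR adjusted p = 0.00201), but not with total counts (-0.10). Mitf was lower with LPS+LA than with LPS+HCl (log2 -0.43, SE 0.08, edgeR adjusted p = 0.000201).

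Tfe3 is the third factor. Tfe3 stood at 182 and 198 CPM in control, 169.8 and 159 in LPS, 168 and 163 in LA, 153 and 157 in LPS+LA, and 191 and 194 in LPS+HCl. Control and LPS+HCl libraries were the higher ones and LPS+LA the lowest. Its falls with LPS (-0.21, and -0.93 with total counts) and with LA (-0.20, and -0.31 with total counts) were called under both scalings. The first was lost without control 2 (-0.14, adjusted p = 0.151) or LPS 2 (-0.16, adjusted p = 0.169), and the second without control 2 (-0.13, adjusted p = 0.248) or LA 2 (-0.18, adjusted p = 0.112) or LPS+HCl 1 (-0.20, adjusted p = 0.0504). LPS+LA against LPS was not called (log2 -0.084, SE 0.07, edgeR adjusted p = 0.338), and with total counts the value was 0.32 and called higher. LPS+HCl was above LPS (0.23), a call lost without LPS 2 (0.17, adjusted p = 0.206) or LPS+HCl 1 (0.24, adjusted p = 0.0655) or LPS+HCl 2 (0.22, adjusted p = 0.0972). It was also above LPS+LA (LPS+LA minus LPS+HCl -0.31, and -0.15 and not called with total counts).

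**Figure D3:**
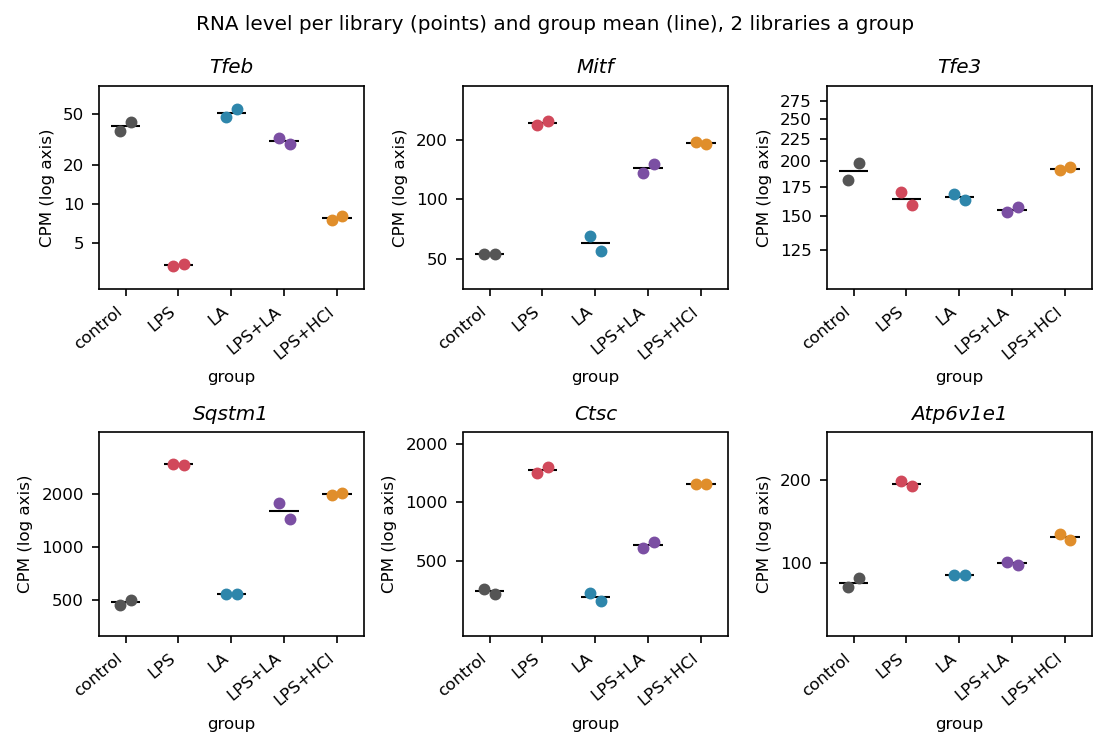
CPM on a log axis in each of the 10 RNA libraries for Tfeb, Mitf, Tfe3, Sqstm1, Ctsc and Atp6v1e1, with the mean of each group of 2 as a line. Tfeb dips to 3.30 and 3.44 CPM in LPS, where the other 4 genes besides Tfe3 reach their highest levels.

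The V-ATPase subunits did not move as one unit. Of the 14 subunits of V0 and V1, LPS called 10 higher and 1 lower, with a median log2 change of 0.32, beside 32.4% and 32.4% of all tested genes, but with total counts 1 was higher and 11 were lower. LPS+LA against LPS called 3 higher and 7 lower (8 and 4 with total counts), beside 29.2% and 29.7%, and LPS+HCl against LPS called 0 higher and 9 lower (2 and 4 with total counts), beside 18.0% and 20.8%. LA against control called 5 higher and 5 lower (3 and 5 with total counts), beside 20.4% and 17.9%. These shares of all genes are TMM-scaled. With total counts, higher and lower calls among all 12213 genes were 1761 and 8289 for LPS, and 1719 and 3070 for LA. They were 6208 and 2032 for LPS+LA against LPS, and 4535 and 1310 for LPS+HCl against LPS. The comparisons with LPS share the LPS libraries, so their values are set side by side and not correlated.

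**Figure D4:**
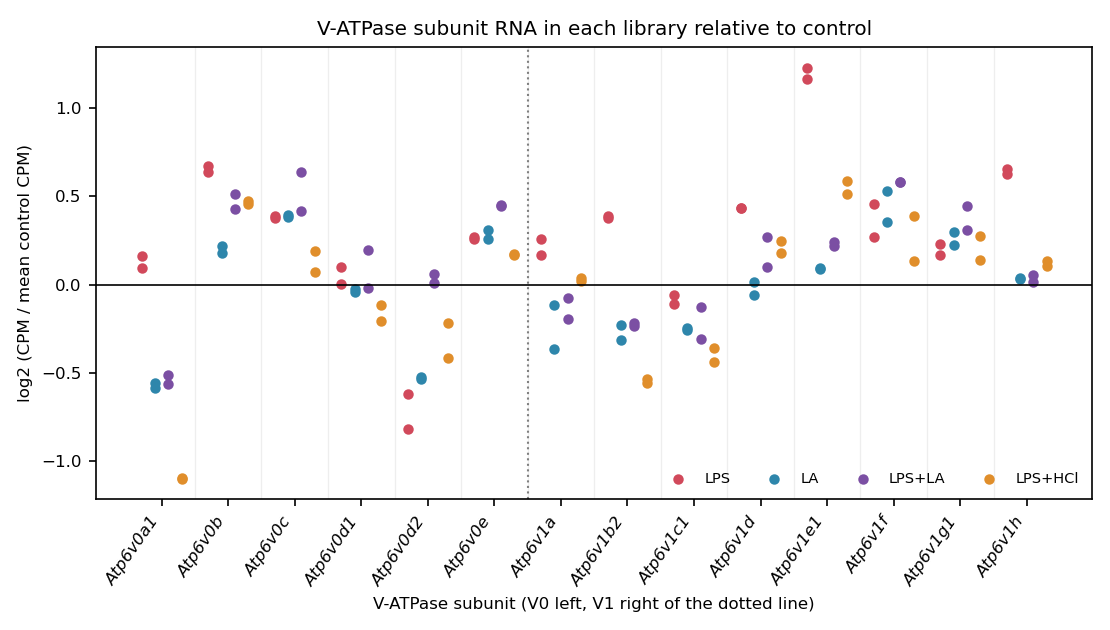
log2 ratio of CPM (TMM-scaled) in each library to the mean of the 2 control libraries for the 6 V0 and 8 V1 subunits, in LPS, LA, LPS+LA and LPS+HCl. Atp6v0a1 lies below 0 in the 6 acid-treated libraries and lowest in LPS+HCl, and Atp6v1e1 lies highest in LPS.

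In the V0 part, Atp6v0a1, one of the large subunits that form the proton path beside the ring, was lower in all acid-treated cells. Atp6v0a1 stood at 520.0 and 549.5 CPM in control, 571 and 599 in LPS, 356 and 363 in LA, 375 and 362 in LPS+LA, and 251 and 249.99 in LPS+HCl. The 6 libraries with acid lay below the 4 without it, and those of LPS+HCl were lowest. The fall was 1.49-fold with LA alone (log2 -0.57, SE 0.06, edgeR adjusted p = 2.63e-07), 1.59-fold with LPS+LA against LPS (log2 -0.67, SE 0.06, edgeR adjusted p = 4.54e-09) and 2.34-fold with LPS+HCl against LPS (log2 -1.22, SE 0.07, edgeR adjusted p = 5.75e-13). LPS+LA stayed 1.47-fold above LPS+HCl (log2 0.56, SE 0.07, edgeR adjusted p = 2.32e-07). LPS alone gave no call (log2 0.13, SE 0.06, edgeR adjusted p = 0.0817), with total counts -0.59. The interaction was not called (-0.094, edgeR adjusted p = 0.435).

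Atp6v0d2, the form of the ring-to-stalk connector known from osteoclasts, was scarce. Atp6v0d2 stood at 8.65 and 8.02 CPM in control, 4.73 and 5.42 in LPS, 5.80 and 5.76 in LA, 8.40 and 8.69 in LPS+LA, and 7.18 and 6.24 in LPS+HCl. LPS and LA libraries lay below those of control and LPS+LA. It fell with LPS (log2 -0.72, SE 0.20, edgeR adjusted p = 0.003) and was higher with LPS+LA than with LPS (log2 0.75, SE 0.20, edgeR adjusted p = 0.00257), under both scalings and in each fit with a library left out. Its fall with LA alone (log2 -0.53, SE 0.19, edgeR adjusted p = 0.0294) was lost without control 1 (-0.47, adjusted p = 0.163) or control 2 (-0.58, adjusted p = 0.0743) or LA 1 (-0.53, adjusted p = 0.0775) or LA 2 (-0.52, adjusted p = 0.0825). LPS+HCl against LPS was not called (log2 0.40, SE 0.21, edgeR adjusted p = 0.128). Atp6v0d1, the widely expressed form, was not called with LPS (0.051), LA (-0.031) or LPS+LA against LPS (0.040), for which total counts gave -0.67 (called lower), -0.14 and 0.44 (called higher). It was called lower with LPS+HCl than with LPS (-0.21, but 0.026 and not called with total counts) and higher with LPS+LA than with LPS+HCl (0.25, 0.42 with total counts). The first was lost without LPS 1 (-0.26, adjusted p = 0.0528) or LPS 2 (-0.17, adjusted p = 0.236) or LPS+HCl 1 (-0.26, adjusted p = 0.0616) or LPS+HCl 2 (-0.17, adjusted p = 0.238), and the second without LPS+LA 1 (0.15, adjusted p = 0.191) or LPS+HCl 2 (0.21, adjusted p = 0.138).

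The ring subunits are Atp6v0c and Atp6v0b. Atp6v0c stood at 826 and 864 CPM in control, 1104 and 1098 in LPS, 1102 and 1113 in LA, 1314 and 1128 in LPS+LA, and 964 and 887 in LPS+HCl. Control libraries were lowest, and the LPS+LA libraries were highest. Atp6v0c rose with LA under both scalings (log2 0.39, SE 0.07, edgeR adjusted p = 0.00012) and was higher with LPS+LA than with LPS+HCl (log2 0.40, SE 0.07, edgeR adjusted p = 6.79e-05). Its TMM-scaled rise with LPS (0.38) turned to -0.34 with total counts. Where a gene has near-identical copies elsewhere in the genome, its expected counts can be shared with them. Atp6v0b had a TMM-scaled value of 0.65 with LPS, and -0.068 with total counts. Atp6v0e, a small membrane subunit, rose with LA (log2 0.28, SE 0.07, edgeR adjusted p = 0.00204) and was higher with LPS+LA than with LPS+HCl (0.28).

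In the V1 part, Atp6v1e1, a subunit of the outer stalks, had the widest TMM-scaled change of the 8 with LPS and with LPS+LA against LPS. Atp6v1e1 stood at 81.6 and 88.2 CPM in control, 199 and 190.0 in LPS, 90.8 and 90.2 in LA, 101 and 98.8 in LPS+LA, and 128 and 121 in LPS+HCl. LPS libraries lay above all others, followed by LPS+HCl, and the other 3 groups lay close together. Atp6v1e1 rose 2.29-fold with LPS (log2 1.20, SE 0.07, edgeR adjusted p = 9.24e-13) and was lower than LPS with LPS+LA (log2 -0.96, SE 0.07, edgeR adjusted p = 9.07e-11) and with LPS+HCl (log2 -0.64, SE 0.07, edgeR adjusted p = 2.05e-07). LPS+LA lay below LPS+HCl (log2 -0.32, SE 0.08, edgeR adjusted p = 0.00143), which with total counts was -0.15 and not called.

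Atp6v1b2, the widely expressed form of the nucleotide-binding B subunit, was also lower in all acid-treated cells. Atp6v1b2 stood at 272 and 276 CPM in control, 359 and 355 in LPS, 234 and 221 in LA, 236 and 233 in LPS+LA, and 189 and 187 in LPS+HCl. The 6 acid-treated libraries lay below the control libraries and LPS above them. It was lower with LA (log2 -0.27, SE 0.07, edgeR adjusted p = 0.00226), with LPS+LA against LPS (log2 -0.61, SE 0.07, edgeR adjusted p = 3.04e-08) and with LPS+HCl against LPS (log2 -0.93, SE 0.07, edgeR adjusted p = 9.08e-11), and LPS+LA stayed above LPS+HCl (log2 0.32, SE 0.07, edgeR adjusted p = 0.000476). The TMM-scaled rise with LPS (0.38) was -0.34 with total counts.

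Atp6v1h, a subunit that regulates ATP splitting, was next. Atp6v1h stood at 65.0 and 60.9 CPM in control, 99.0 and 97.3 in LPS, 64.6 and 64.4 in LA, 65.3 and 63.7 in LPS+LA, and 67.9 and 69.2 in LPS+HCl. LPS libraries were highest and the other 4 groups lay close together. Its TMM-scaled rise with LPS (0.64) was -0.079 with total counts, but it was lower than LPS with LPS+LA (log2 -0.61, SE 0.08, edgeR adjusted p = 6.3e-07) and with LPS+HCl (log2 -0.52, SE 0.08, edgeR adjusted p = 1.27e-05) under both scalings. Atp6v1f, a rotor subunit, behaved otherwise. Atp6v1f stood at 101 and 106 CPM in control, 142 and 124 in LPS, 132 and 149 in LA, 154 and 155 in LPS+LA, and 135 and 113 in LPS+HCl. The control libraries lay lowest and the LPS+LA libraries highest. Atp6v1f rose with LA (log2 0.45, SE 0.09, edgeR adjusted p = 0.00039). Its call for LPS+LA against LPS (0.21) was lost without LPS 2 (0.13, adjusted p = 0.372) or LPS+LA 1 (0.22, adjusted p = 0.102) or LPS+LA 2 (0.21, adjusted p = 0.123), and that for LPS+LA against LPS+HCl (0.31) without LPS+HCl 2 (0.19, adjusted p = 0.2).

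The remaining V1 subunits changed less. Atp6v1a, the catalytic subunit, had TMM-scaled log2 values of 0.21 with LPS, -0.23 with LA and -0.35 with LPS+LA against LPS, and with total counts -0.51, -0.34 and 0.054. Atp6v1d, the central rotor, had 0.43 with LPS and -0.25 with LPS+LA against LPS (-0.29 and 0.16 with total counts). Atp6v1c1, which takes part in joining V1 to V0, was lower with LA (-0.25, -0.36 with total counts) and with LPS+HCl against LPS (-0.32, -0.079 and not called with total counts). The LA call was lost without control 1 (-0.20, adjusted p = 0.116). Atp6v1g1, of the outer stalks, had 0.26 with LA, 0.15 and not called with total counts. Atp6ap1 and Atp6ap2, which help to assemble the pump, ran from -0.20 to 0.25 over the 5 pairwise comparisons. Their calls with LPS, 0.18 and 0.25, were -0.54 and -0.47 with total counts.

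Of the 8 cathepsins, Ctsc had the widest TMM-scaled change with LPS and with LPS+LA against LPS, while Ctsz moved more with LPS+HCl against LPS (-0.36). Ctsc removes dipeptides and so activates serine proteases of immune cells. Ctsc stood at 359 and 339 CPM in control, 1413 and 1527 in LPS, 343 and 309 in LA, 586 and 625 in LPS+LA, and 1251 and 1244 in LPS+HCl. Control and LA libraries were low and overlapped, LPS and LPS+HCl were high, and LPS+LA lay between. Ctsc rose 4.21-fold with LPS (log2 2.07, SE 0.07, edgeR adjusted p = 5.8e-18) and was 2.43-fold lower with LPS+LA (log2 -1.28, SE 0.07, edgeR adjusted p = 1.03e-13). With HCl the difference from LPS was small (log2 -0.24, SE 0.07, edgeR adjusted p = 0.00729), -0.0004 with total counts, and not called without LPS 2 (-0.19, adjusted p = 0.125) or LPS+HCl 2 (-0.23, adjusted p = 0.0568). LPS+LA lay 2.06-fold below LPS+HCl (log2 -1.04, SE 0.07, edgeR adjusted p = 1.76e-11).

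After LPS the other 7 cathepsins ran from 0.013 for Ctsd to 0.78 for Ctsz on the TMM scale, and from -0.71 to 0.065 with total counts. Ctsz stood at 509 and 554 CPM in control, 918 and 913 in LPS, 642 and 653 in LA, 741 and 679.8 in LPS+LA, and 698 and 726 in LPS+HCl. Control libraries were lowest and LPS highest for Ctsz, a carboxypeptidase. Its rise with LA alone was called under both scalings (log2 0.29, SE 0.07, edgeR adjusted p = 0.00144), whereas its value for LPS+LA against LPS (-0.37) was 0.036 with total counts. Ctsh stood at 79.0 and 81.1 CPM in control, 112 and 116 in LPS, 96.0 and 110.0 in LA, 109 and 112 in LPS+LA, and 133 and 129.5 in LPS+HCl. For Ctsh, an aminopeptidase, control was lowest and LPS+HCl highest. It rose with LA under both scalings (log2 0.36, SE 0.08, edgeR adjusted p = 0.000792), and with LPS it had 0.51, or -0.21 with total counts.

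Ctsd and Ctsl, an endopeptidase, were higher with LPS+LA than with LPS in every fit run (log2 0.23, SE 0.06, edgeR adjusted p = 0.00122 for Ctsd, and log2 0.26, SE 0.06, edgeR adjusted p = 0.00107 for Ctsl). Ctsd stood at 7658 and 7589 CPM in LPS and 9129.9 and 8747 in LPS+LA, and Ctsl at 517 and 496 and 602 and 615. Neither was called for LPS+HCl against LPS (0.085 and 0.0099), with total counts 0.32 and 0.25, both then called higher. Ctsl was higher with LPS+LA than with LPS+HCl (0.25), but not without LPS+HCl 2 (0.21, adjusted p = 0.0672). Ctsb, the most abundant member, kept 9404 and 9596 CPM in control and 11278 and 10890.0 in LPS+LA, and LPS against control was 0.19 (-0.53 with total counts). Ctss, which cuts the invariant chain of MHC class II, had 0.37 with LPS and -0.19 with LPS+LA against LPS, and -0.35 and 0.21 with total counts. Ctsa, a carboxypeptidase that protects other hydrolases, ran from 0.018 to 0.24 in the 5 pairwise comparisons, and with total counts LPS against control was -0.55.

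Among the membrane proteins, Lamp2, which takes part in chaperone-mediated autophagy, was lower with LPS+LA than with LPS (log2 -0.57, SE 0.07, edgeR adjusted p = 9.48e-08), at 601 and 583 CPM against 866 and 892. The control libraries held 595 and 549.8 CPM, and the rise with LPS, 0.62 on the TMM scale, was -0.10 with total counts. Lamp1 ran from -0.070 to 0.20 in the 5 pairwise comparisons, and its value with LPS, the highest of them, was -0.52 with total counts. Mcoln1, a calcium channel of the lysosomal membrane, was called in none of the 6 tests and ran from -0.13 to 0.21, but with total counts it was called lower with LPS (-0.66) and higher with LPS+LA against LPS (0.47).

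Of the 5 genes of hydrolysis and lipid handling, Npc1 and Npc2, which pass cholesterol out of the lysosome, parted. Npc1 stood at 338 and 356 CPM in control, 271 and 295 in LPS, 264 and 256 in LA, 265 and 257 in LPS+LA, and 233 and 230.1 in LPS+HCl. Control libraries lay above all others and LPS+HCl below all others. Npc1 fell with LPS (log2 -0.29, SE 0.07, edgeR adjusted p = 0.000584) and with LA (log2 -0.42, SE 0.07, edgeR adjusted p = 3.73e-05) in every fit run. Npc2 stood at 597 and 589.5 CPM in control and 900.2 and 910.2 in LPS, a TMM-scaled change of 0.61 (-0.11 with total counts), and it rose with LA (0.26) under both scalings. Lipa, the acid lipase that frees cholesterol from its esters, fell with LPS in every fit run (log2 -0.31, SE 0.07, edgeR adjusted p = 0.000281), from 1039.5 and 983 to 804 and 829 CPM. Gla, alpha-galactosidase A, fell with LA (log2 -0.36, SE 0.08, edgeR adjusted p = 0.000586), from 114 and 119 to 94.6 and 86.4 CPM, and was higher with LPS+LA than with LPS+HCl (0.29). Hexa, a subunit of beta-hexosaminidase, was called in none of the 6 tests and ran from -0.049 to 0.098, while total counts gave -0.64 with LPS and 0.45 with LPS+LA against LPS, both called.

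Sqstm1 encodes p62, which carries ubiquitin-tagged cargo into autophagosomes and also takes part in stress signalling. Sqstm1 stood at 470.1 and 497 CPM in control, 2956 and 2899 in LPS, 538 and 541 in LA, 1776 and 1431 in LPS+LA, and 1956 and 2024 in LPS+HCl. The LPS libraries lay highest, LPS+HCl next and LPS+LA after them, and control and LA were low without overlapping. Sqstm1 rose 6.05-fold with LPS (log2 2.60, SE 0.08, edgeR adjusted p = 2.96e-18), the largest rise of the 36. It was lower than LPS with LPS+LA (log2 -0.87, SE 0.08, edgeR adjusted p = 1.19e-09) and with LPS+HCl (log2 -0.56, SE 0.08, edgeR adjusted p = 2.9e-06). LPS+LA lay below LPS+HCl (-0.31), a call lost with total counts (-0.15) and without LPS+LA 2 (-0.16, adjusted p = 0.101).

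Further genes of the same pathways, 114 in 8 lists, 108 of them tested, were counted beside the 36. After LPS, 36 were higher and 38 lower (median log2 -0.01), beside 32.4% and 32.4% of all tested genes. With LPS+LA against LPS 43 were higher and 28 lower (0.11), beside 29.2% and 29.7%. With LPS+HCl against LPS 15 were higher and 21 lower (0.01), beside 18.0% and 20.8%. The list of 15 genes of nutrient sensing at the lysosome also holds Tfec, a MiT/TFE factor. Of these 15, LPS left 3 higher and 8 lower, and in LPS+LA against LPS 8 were higher and 4 lower. Of the 30 other hydrolases and activators, 9 were higher and 9 lower with LPS, and 14 were higher and 4 lower with LPS+LA against LPS. Of the 22 autophagy genes, LPS left 7 higher and 12 lower, and in LPS+LA against LPS 10 were higher and 4 lower. With LA alone, 1 gene of the nutrient sensing list was higher and 9 were lower (median -0.43), beside 20.4% and 17.9% of all tested genes. Of the 21 other membrane proteins, LPS left 8 higher and 7 lower, and LPS+LA against LPS 7 and 7. Of the smaller lists, LPS called 2 higher and 1 lower of 4 other V-ATPase subunits, 2 and 0 of 7 other proteases, 2 and 1 of 6 sorting genes, and 3 and 0 of 3 cathepsin inhibitors. These list counts are TMM-scaled. The genes named next had calls that held in every fit run.

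Flcn and Fnip2, which form a complex that governs the phosphorylation of TFEB and TFE3 at the lysosome, fell with LPS, with LA alone, and were higher with LPS+LA than with LPS. Fnip2 averaged 325 ± 1.66 CPM in control, 28.3 ± 4.65 in LPS, 108 ± 0.881 in LA, 119 ± 7.79 in LPS+LA and 32.0 ± 0.594 in LPS+HCl (± SD, n = 2). Flcn averaged 59.8 ± 1.79, 7.39 ± 0.267, 23.6 ± 2.61, 26.3 ± 0.521 and 9.98 ± 0.0508 CPM in the same order. The drop with LPS was log2 -3.52 for Fnip2 and -3.01 for Flcn, and LPS+LA against LPS was 2.07 and 1.83. Both were lower with LA alone (-1.59 and -1.34). Tfec, the fourth MiT/TFE gene, rose with LPS (log2 2.77, SE 0.11, edgeR adjusted p = 7.11e-17) and was lower with LPS+LA (-1.66) and LPS+HCl (-1.33) than with LPS, from 139 ± 3.99 CPM in LPS to 43.9 ± 0.0698 and 55.3 ± 2.85.

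Among membrane proteins, Cln3, which is linked to a lysosomal storage disease, rose with LPS (log2 1.71, SE 0.08, edgeR adjusted p = 1.5e-15). Clcn7, the lysosomal chloride-proton exchanger, averaged 175 ± 11.6 CPM in control, 413 ± 14.3 in LPS, 147 ± 5.86 in LPS+LA and 169.5 ± 3.68 in LPS+HCl, and was lower than LPS with LA (-1.49) and with HCl (-1.29). Mcoln2, a relative of Mcoln1, was lower than LPS with LA (-1.95) and with HCl (-1.03). Of the hydrolases, Sgsh, a heparan sulfate sulfatase, fell with LPS (-2.23), and Pla2g15, a lysosomal phospholipase, was higher than LPS with LA (2.04) and with HCl (1.27). Atp6v0a2, another form of the subunit encoded by Atp6v0a1, was lower with LPS+LA than with LPS+HCl (-0.995), the opposite direction to Atp6v0a1 (0.56). Ulk1 (0.77) and Nbr1 (0.69), an autophagy kinase and an autophagy receptor, were higher with LPS+HCl than with LPS. Their means were higher still in LPS+LA. Ulk1 averaged 32.0 CPM in LPS, 77.0 in LPS+LA and 54.6 in LPS+HCl, and Nbr1 36.8, 79.3 and 59.6. With LA alone, Cst3, the cathepsin inhibitor cystatin C, the sorting receptor gene M6pr and the autophagy gene Wipi1 rose (0.50, 0.40 and 0.63), and the sorting receptor gene Igf2r fell (-0.68).

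Between LPS+LA and LPS+HCl, Fnip2, Flcn and Fnip1 were higher with LA (1.90, 1.40 and 1.47), and Tax1bp1, an autophagy receptor, and Mcoln2 were lower (-0.86 and -0.92). The interaction was above 0 for Fnip2, Flcn and Sgsh (3.66, 3.17 and 1.99) and below 0 for Clcn7, Atg16l1 and the cystatin gene Cst7 (-1.10, -1.74 and -1.82).

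Open chromatin near the 36 genes was read from the peaks that the authors called in each of the 12 ATAC samples, 76680 to 100667 per sample. Peaks of all samples that overlapped by at least 1 bp were merged into sites, and 324 sites lay within 10 kb of the members' bounds. Gained sites had peaks in all 3 treated samples and 0 of 3 reference samples, lost sites the reverse, and these counts carry no test. LPS against control gained 25 sites (7.72%) and lost 8 (2.47%), against 7.86% and 2.42% of the 80761 sites near all tested genes. LA against control gained 8 and lost 8 (2.47% each), against 1.55% and 2.21%. LPS+LA against LPS gained 6 and lost 6 (1.85% each), against 2.32% and 2.11%. With all peaks used, the members' shares with LPS lay near those of all genes. Per the file headers, control and LPS were sequenced on lane 5 and LA and LPS+LA on lane 6, so the LA effect and the lane cannot be told apart here. A missing peak may still hold reads. With only peaks at or above each sample's median score, 186 sites lay near members and 42446 near all tested genes. LPS then gained 9 and lost 5 near members, against 3894 and 1537 near all tested genes. LA gained 1, against 852. Both gained shares were smaller near members than near all tested genes there. Without ATAC sample LPS+LA 1, LPS+LA against LPS gained 17, against 3495 of the 80761 sites near all tested genes. Without LPS 1 it gained 11, against 2657, while LPS against control lost 13, against 2932. Without LPS 3, LPS+LA against LPS lost 10, against 2887.

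**Figure D5:**
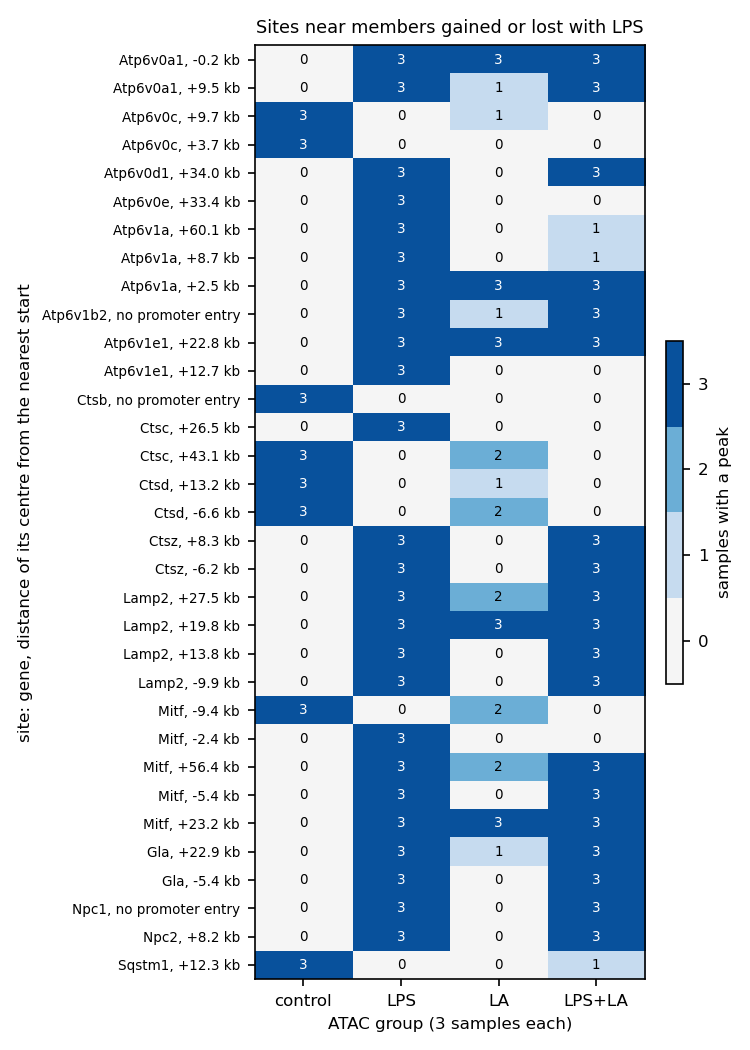
Number of ATAC samples, of 3 per group, with a peak at each of the 33 sites near members that were gained or lost with LPS; each row gives the gene and the distance of the site's centre from the nearest annotated start. Of the 25 gained sites, 4 have no peak in LPS+LA, at Atp6v0e (33415 bp), Atp6v1e1 (12728 bp), Ctsc (26529 bp) and Mitf (-2416 bp).

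At Tfeb, whose RNA changed most, 0 of 14 sites were gained or lost in the 3 comparisons, 8 of the 14 had peaks in all 12 samples, and its 2 upstream promoter windows (chr17:47736787-47737086 and chr17:47737681-47737980) had peaks in all 12. The remaining Tfeb window had peaks in 0 of 12. Mitf had 39 sites, of which 4 were gained and 1 was lost with LPS. A Ctsc site at chr7:88304503-88304727, inside the gene, had peaks in all 3 LPS samples and in 0 of 3 control, 0 of 3 LA and 0 of 3 LPS+LA samples, and the relation to its RNA was not tested. An Atp6v1e1 site inside the gene (chr6:120809796-120810146) had the same pattern. At Lamp2, 4 of 16 sites were gained with LPS, and each of the 4 had peaks in all 3 LPS+LA samples too. Of 36 promoter windows of members, 32 had peaks in all 12 samples.

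The Atp6v0a1 window had peaks in 0 of 3 control samples and in all 3 samples each of LPS, LA and LPS+LA. It is shown because it is the 1 member window with no peak in control and peaks in every treated sample. The stretch is chr11:101010148-101010397 on the plus strand, and capitals mark the bases inside the merged ATAC site.

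Atp6v0a1: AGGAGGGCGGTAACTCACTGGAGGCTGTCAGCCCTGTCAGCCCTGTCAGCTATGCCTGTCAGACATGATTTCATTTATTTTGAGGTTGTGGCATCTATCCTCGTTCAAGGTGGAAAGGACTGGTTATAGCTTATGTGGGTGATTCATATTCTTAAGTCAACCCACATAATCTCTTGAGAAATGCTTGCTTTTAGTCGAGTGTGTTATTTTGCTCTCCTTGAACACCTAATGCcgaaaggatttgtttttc

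None of the 3 E-box motifs was in this window. Atp6v0a1 RNA was not called with LPS (0.13) and was lower with LA (-0.57), and peaks were present in both groups. The gene's bounds begin upstream of this window, at position 101009422. That position lies in another site (chr11:101008143-101009698), which had peaks in all 3 samples of each group, control included. An Atp6v0c window (chr17:24168760-24169059) had peaks in 1 control, 3 LPS, 0 LA and 1 LPS+LA samples, and 2 windows, 1 of Mitf and 1 of Tfeb, had none.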

How the data were processed

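The authors deposited 1 RNA table with expected count, FPKM and TPM columns for each of 10 libraries. Estimated (expected) counts need not be whole: 6.07% of those deposited had a fraction, and each was rounded. The submitters' processing notes name HISAT, Bowtie2 and GRCm38.p6. Neither the counting tool nor its use of strand is stated there. The deposited TPM values were used for levels between genes, and the deposited FPKM values were not used. For ATAC-seq the authors deposited peaks with a score per sample, called with MACS2 per the file headers (MACS2 2.0.10, BWA 0.5.9, Picard and mm10, GRCm38, per the submitters' processing notes); the score only filtered peaks in 1 alternative.

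Genes were kept by filterByExpr (minimum count 10, minimum total 15), scaled by TMM and fitted with edgeR 4.0.16 (glmQLFit, robust, R 4.3.3) with 1 term per group over all 10 libraries, so that groups of 2 share 1 estimate of the spread; tests were two-sided with a threshold of 0.05, and an SE is the log2 change divided by the square root of F. Alternatives were DESeq2 1.42.0 (size factors, and its Wald test), total-count scaling, no filter, only the groups compared, a replicate block, and leaving out each library or control 1 and LPS+HCl 2 together, whose neuron marker sums exceeded those of their replicates. The fit was run on simulated data with few changed genes, in both directions, which could not test the choice of scaling. All 36 members are named, by role; those among the 6 largest called changes of a test, and the 3 MiT/TFE factors, have every library's value; of the wider lists, up to 3 genes per direction and test with the smallest adjusted p are named. 1 gene that this rule names is not reported here. Ctsd, Ctsl, Lamp2, Npc2, Lipa, Gla and Ctsb are given with further library values beyond that rule. The members and lists were chosen with earlier results of these data known. Gene bounds and promoters come from RefSeq tables of GRCm38.p6; peaks were merged in Python.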

Additional observations from a re-analysis of the deposited data

Results flagged for a closer look

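The effect of lactic acid differed between LPS-treated and unstimulated cells for 17 members by the interaction test of edgeR (adjusted p under 0.05, LA effect with LPS minus LA effect without it, log2). The difference was above 0 for Tfeb (2.84), Atp6v0d2 (1.28), Gla (0.32), Npc1 (0.30) and Lipa (0.29), under both scalings. It was below 0 for Ctsc (-1.18), Atp6v1e1 (-1.06), Sqstm1 (-1.03) and Mitf (-0.96) under both scalings. It was below 0 with TMM, and not called with total counts, for Ctsz (-0.65), Atp6v1h (-0.64) and Lamp2 (-0.57). It was below 0 with TMM and above 0, without a call, with total counts for Npc2 (-0.51), Ctsh (-0.41), Ctss (-0.40), Atp6v0b (-0.38) and Atp6v1b2 (-0.34). The calls of Gla, Npc1 and Lipa were lost when 1 library was left out. Groups of 2 or 3 samples are too small for a test of single samples that lie far from their group.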

How the results depend on the processing

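Scaling mattered most. With total-count scaling the members called were, for LPS against control 4 higher and 27 lower, LA against control 6 higher and 10 lower, LPS+LA against LPS 25 higher and 8 lower, LPS+HCl against LPS 14 higher and 5 lower, LPS+LA against LPS+HCl 23 higher and 2 lower, the interaction 23 higher and 4 lower. Of all 12213 genes, total counts called 1761 higher and 8289 lower for LPS against control, and 1719 and 3070 for LA against control. For LPS+LA and LPS+HCl against LPS, the numbers were 6208 and 2032, and 4535 and 1310. For LPS+LA against LPS+HCl and the interaction, they were 3947 and 1893, and 5917 and 1294. This scaling moves all genes of a comparison by nearly the same amount. Among values called with TMM, with the alternative or with both, those that changed sign did so under this scaling, and they follow as log2 values under total counts. Values called in neither fit, most of them close to 0, also changed sign under this and other alternatives and are not listed. For LPS against control: Atp6v0a1 -0.59, Atp6v0b -0.068, Atp6v0c -0.34, Atp6v0d1 -0.67, Atp6v0e -0.46, Atp6v1a -0.51, Atp6v1b2 -0.34, Atp6v1d -0.29, Atp6v1f -0.35, Atp6v1g1 -0.52, Atp6v1h -0.079, Atp6ap1 -0.54, Atp6ap2 -0.47, Ctsa -0.55, Ctsb -0.53, Ctsd -0.71, Ctsh -0.21, Ctsl -0.60, Ctss -0.35, Lamp1 -0.52, Lamp2 -0.10, Mcoln1 -0.66, Hexa -0.64, Npc2 -0.11. For LPS+LA against LPS: Atp6v0b 0.22, Atp6v1a 0.054, Atp6v1c1 0.27, Atp6v1d 0.16, Atp6ap2 0.20, Ctsh 0.35, Ctss 0.21, Ctsz 0.036, Lamp1 0.36, Tfe3 0.32, Gla 0.37, Npc1 0.28, Npc2 0.16. For LPS+HCl against LPS: Atp6v0b 0.049, Atp6v0d1 0.026, Atp6v1d 0.017, Atp6ap1 0.19, Ctsb 0.18, Ctss 0.14, Lamp1 0.17, Hexa 0.19. For LPS+LA against LPS+HCl: Ctsz 0.16. For the interaction: Atp6v0a1 0.42, Atp6v0b 0.13, Atp6v0c 0.27, Atp6v0e 0.41, Atp6v1a 0.40, Atp6v1b2 0.17, Atp6v1d 0.28, Atp6v1g1 0.43, Atp6ap1 0.32, Atp6ap2 0.31, Ctsa 0.45, Ctsb 0.40, Ctsh 0.097, Ctss 0.11, Lamp1 0.36, Hexa 0.51, Npc2 0.0043.

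With DESeq2 size factors 4 members were higher in LPS+LA against LPS, beside 3342 of all 12213 genes. With only the groups compared in the fit, 4 were higher in LPS+HCl against LPS, beside 2731 of 11375 genes. Without control 1 and LPS+HCl 2 together, LA against control had 9 higher and 5 lower, beside 1676 and 1497 of 12286 genes. That fit gave 1 higher for LPS+HCl against LPS and 6 higher for LPS+LA against LPS+HCl, beside 1635 and 1381. Leaving out 1 library gave counts of 9 to 15 higher for LA against control, 5 to 8 lower for LA against control, 5 to 9 higher for LPS+LA against LPS, 1 to 3 higher for LPS+HCl against LPS, 6 to 13 higher for LPS+LA against LPS+HCl, 3 to 5 higher for the interaction. At the lowest of these counts, fewer of all tested genes were called in that direction as well. The cause of these losses was not tested. With the replicate block, higher and lower calls in the order of the 6 tests were 23 and 6, 14 and 8, 8 and 15, 3 and 17, 11 and 7, 5 and 13. Among all 12213 genes they were 3952 and 3897, 2487 and 2176, 3532 and 3609, 2152 and 2536, 2201 and 2711, and 2476 and 2904. Same-numbered libraries did not deviate together, though with 2 libraries a group a weak pairing could be missed this way. The correlations ran from -0.052 to 0.049, except for -0.503 between control and LPS+HCl. There, control 1 deviated in the same direction as LPS+HCl 2, the libraries with the higher neuron marker sums of their groups, and the cause was not tested. ATAC counts ranged over the alternatives from 9 to 29 gained and 4 to 13 lost with LPS, 1 to 9 and 6 to 13 with LA, and 3 to 17 and 3 to 10 with LPS+LA against LPS. Member sites numbered from 186 to 324 over these alternatives, and sites near all tested genes from 42446 to 80761. With 2 libraries a group, small changes rest on few measurements, and peak lists give no read depth.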
